A study of Drosophila melanogaster with 9 samples.

Results

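Cytoplasmic ribosomal proteins are the protein part of the ribosome that translates messenger RNA in the cytoplasm. The 92 genes described here were chosen by symbol alone from 17575 genes in the count table, as the protein-coding genes whose FlyBase symbol begins with RpL or RpS followed by a digit, or by P and a digit. Of these, 54 were named for the large subunit and 38 for the small subunit. The 2 ribosomal protein genes with other symbols, sta and Rack1, were kept outside and are given for comparison.

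A ribosome carries a single molecule of nearly every ribosomal protein, so cells usually make the set of messages together. In Drosophila most of the proteins are encoded by a single gene, but some have a second gene, and several of those second copies are known for expression in the germline or the testis. The germline of the testis passes from spermatogonia through spermatocytes (SCs), which grow for days and store messages, to spermatids, which no longer divide and make little new RNA.

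Total RNA was taken from whole testes of Drosophila melanogaster adults aged 1 to 3 days and raised at 25 °C, with 3 biological replicates in each of 3 groups. The Control group was, as the methods describe control flies, either the parental bam-GAL4 stock or siblings from the cross, and which of these entered the libraries was not given in the sources used here. In U2af38 RNAi and SRPK RNAi testes, bam-GAL4 drove a hairpin against U2af38, a subunit of the factor that binds 3′ splice sites, or against SRPK, a kinase of splicing proteins. The driver acts in late spermatogonia and SCs, so stem cells, early spermatogonia and somatic cells were not targeted, and each sample pooled 100 pairs of testes. Which of several hairpin lines per gene was sequenced was not given in the labels. Germ cells of U2af38 RNAi testes stop as SCs before meiosis in the study's description, so these testes differ from Control in the stages they hold, while SRPK RNAi testes were described as normal in form with immotile sperm.

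The libraries held 18497748 to 30002574 counted fragments. Levels are given as CPM, counts per 1e6 fragments after scaling by TMM, a method that sets the bulk of genes equal between libraries. U2af38 had 37.5, 42.3 and 41.1 CPM in the Control libraries against 2.46, 4.38 and 3.10 CPM in those of U2af38 RNAi, and SRPK had 274, 248 and 281 CPM against 69.0, 64.5 and 68.1 CPM in those of SRPK RNAi, so both targets were low in the libraries labelled for them. SRPK was also higher in U2af38 RNAi than in Control, at 611, 589 and 658 CPM (log2 fold change 1.21). Over all genes tested, 44.7% were called higher and 37.5% lower in U2af38 RNAi than in Control, and 20.3% and 21.1% in SRPK RNAi. The marker counts that follow stand beside these shares. Of 20 markers of SCs and later germ cells, 14 were lower and 3 higher in U2af38 RNAi than in Control, and their summed level ran from 8576 to 9555 CPM in Control, from 3447 to 3539 CPM in U2af38 RNAi and from 6853 to 7833 CPM in SRPK RNAi. The calls in SRPK RNAi went both ways. ProtA, ProtB, fzo, achi and dj were lower, tomb, nht, comr and mia were higher, and the rest did not pass. Of 12 markers of the muscle sheath, 6 were lower and 1 higher in U2af38 RNAi and 9 lower in SRPK RNAi, with summed levels of 2266 to 3036 CPM in Control, 1544 to 1746 CPM in U2af38 RNAi and 1838 to 2302 CPM in SRPK RNAi. Act87E, with group means of 747 (Control), 65.3 (U2af38 RNAi) and 684 CPM (SRPK RNAi), made the largest part of the lower sum in U2af38 RNAi. Of 10 early germ cell markers 4 were higher and 3 lower in U2af38 RNAi, 5 were higher and 1 lower in SRPK RNAi, and their summed levels were 2194 to 2474 CPM in Control, 1218 to 1314 CPM in U2af38 RNAi and 1997 to 2229 CPM in SRPK RNAi. Most of the Control sum came from bru1, whose group means were 1727 (Control), 655 (U2af38 RNAi) and 1438 CPM (SRPK RNAi). The lower sum with U2af38 RNAi thus rests on bru1 and does not describe these markers as a set. Their calls in U2af38 RNAi were near the shares of all genes. Of 5 germline markers 3 were higher in each knockdown, with 120 to 138, 179 to 180 and 154 to 186 CPM in the same order, and of 11 cyst and hub markers 3 were higher in each and 6 and 5 lower, with 364 to 375, 361 to 368 and 328 to 365 CPM. The summed level of 5 accessory gland genes, of which 4 could be tested and 0 passed, was 10.1 to 441 CPM in Control, 9.57 to 168 CPM in U2af38 RNAi and 14.9 to 980 CPM in SRPK RNAi. None of the markers in these lists was at or under 3 fragments in every library of a group except SP in Control. The part that these markers play in the ribosomal protein values was not tested, and in such whole-tissue samples fewer cells of a type and less RNA per cell cannot be told apart.

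Ribosomal protein messages took a larger part of the RNA in U2af38 RNAi than in Control. The 92 genes held 1.34%, 1.33% and 1.28% of all counted fragments in the Control libraries, 2.85%, 2.86% and 2.64% in U2af38 RNAi, and 1.61%, 1.51% and 1.41% of those of SRPK RNAi. No library of either knockdown overlapped with Control. The U2af38 RNAi share was 2.12-fold that of Control and the SRPK RNAi share 1.15-fold (exact two-sided permutation test over 6 libraries, p = 0.1 for each, the smallest p that 3 against 3 allows).

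The size of this difference depended on how libraries were scaled. TMM factors were 0.816 to 0.864 in Control and 1.30 to 1.32 in U2af38 RNAi, so TMM lowered the U2af38 RNAi levels relative to a plain share of fragments. After TMM the 92 genes summed to 15659 ± 114 CPM in Control, 21325 ± 952 CPM in U2af38 RNAi and 16548 ± 499 CPM in SRPK RNAi (SD, n = 3), which is 1.36-fold and 1.06-fold Control. With library size alone the median of all genes tested itself lay 0.76 above Control on the log2 scale in U2af38 RNAi, against 0.12 with TMM. The members lay above all genes by 0.31, a gap that scaling cannot move, and by 0.56 with at least 10 counts in every library and 0.22 with no filter.

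**Figure D1:**
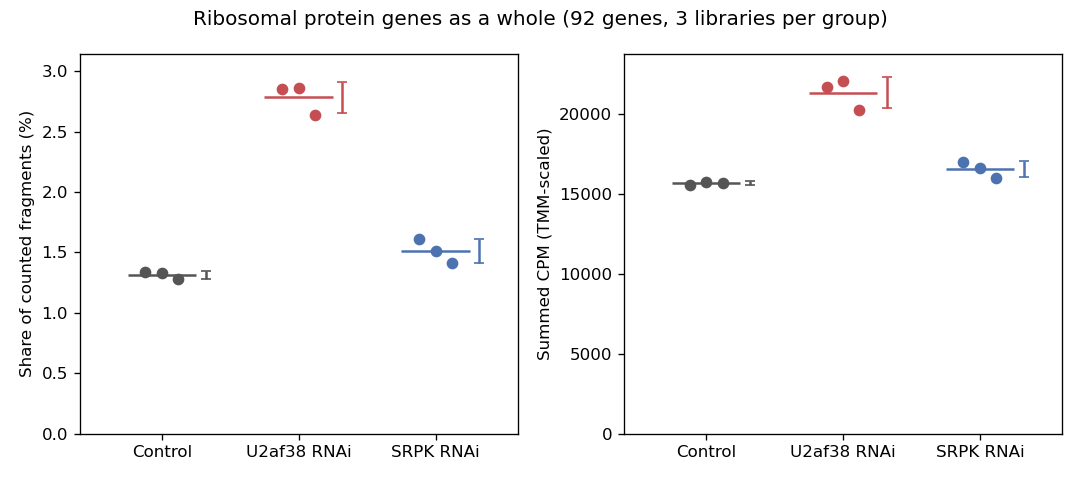
Share of counted fragments in percent (left) and summed TMM-scaled CPM (right) of the 92 ribosomal protein genes, with a point for each library, a line at the mean and a bar for the SD over 3 libraries. The U2af38 RNAi libraries lie at 2.64% to 2.86%, above the 1.28% to 1.34% of Control, and the gap is smaller after TMM scaling.

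Gene by gene, 76 of the 91 genes tested were higher in U2af38 RNAi than in Control and 4 were lower (edgeR quasi-likelihood test, Benjamini-Hochberg adjusted p under 0.05). Over all 14941 genes tested, 44.7% were called higher and 37.5% lower in this comparison, 82.2% in all, so the called members lean to the higher side more than all genes do. The 76 include RpS28a, which passed the filter on low counts only through the U2af38 RNAi libraries where it is high, and 75 others. The members' median log2 fold change was 0.43, a 1.35-fold difference, beside 0.12 for all genes, and the quartiles of the members were 0.28 and 0.58. This median stayed above 0 in all 19 alternative settings, at 0.11 to 1.07, and was lowest when the libraries were scaled on 71 mitochondrial ribosomal protein genes, which left 39 members higher and 10 lower. The libraries of the 2 groups did not overlap for 75 members with U2af38 RNAi above Control and for 4 below, where 46.2% and 38.5% of all genes did the same.

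In SRPK RNAi, 11 members were higher than in Control and 2 lower, where 20.3% and 21.1% of all genes were called, 41.4% in all, so a smaller share of members than of all genes passed in either direction. Libraries did not overlap for 30 members above Control and 3 below, beside 25.3% and 25.2% of all genes. The median log2 fold change was 0.08, beside 0.01 for all genes, and it turned to -0.10 when libraries were scaled on the mitochondrial ribosomal protein genes, which left 0 members higher and 14 lower. The count of higher members also rested on single libraries, since 5 remained called without Control replicate 1 and 6 without SRPK RNAi replicate 1. Beside RpLP0, RpS2, RpS5b, RpL22-like and RpL40, which are described in turn, the higher members were RpL4 at 0.20, RpS4, RpS16, RpL18 and RpL27 at 0.16 each and RpS26 at 0.15 on the log2 scale, the last 6 named after their values were seen. Between the knockdowns, 73 members were higher in U2af38 RNAi than in SRPK RNAi and 3 lower, where 42.3% and 37.6% of all genes were called, 79.9% in all. The median log2 fold change was 0.38 beside 0.07 for all genes, and libraries did not overlap for 73 members above and 3 below, beside 43.6% and 38.2% of all genes and 81.8% in all.

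Higher members were the majority in both subunits. In U2af38 RNAi, 40 of the 51 large-subunit genes that remain without the assembly relatives RpL7-like, RpL24-like and RpLP0-like were higher and 2 lower, with a median log2 fold change of 0.43, and 34 of 38 small-subunit genes were higher and 2 lower, with a median of 0.51. The 14 members on the X chromosome had a median of 0.33, with 13 called higher and 1 lower. Over all genes tested, 44.7% were called higher and 37.5% lower. Neither the number of introns (Spearman rho -0.06 over 91 genes) nor the level in Control (rho 0.01) ordered the fold changes, and these genes share the same libraries.

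**Figure D2:**
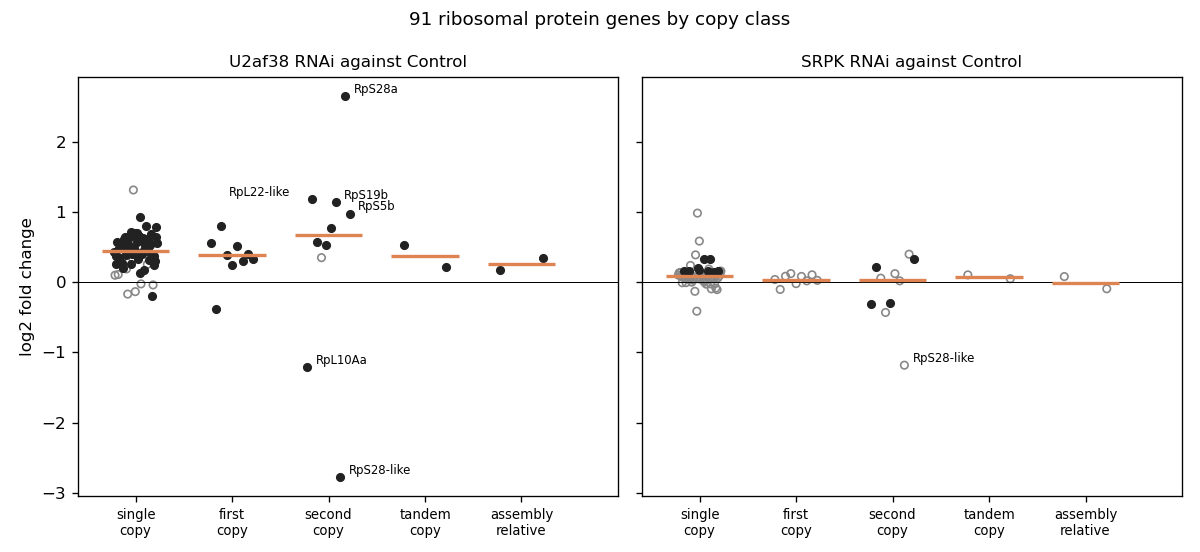
Log2 fold change of each of 91 ribosomal protein genes in U2af38 RNAi (left) and SRPK RNAi (right) against Control, by copy class. Filled points passed an adjusted p under 0.05 in edgeR, open points did not, and lines mark class medians, which are 0.44 for single copies and 0.67 for second copies in U2af38 RNAi, where the second copies range from -2.78 for RpS28-like to 2.64 for RpS28a, which passed the filter on low counts only through U2af38 RNAi, with RpL22-like next at 1.18.

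The members fall into classes by their copies. There are 68 single-copy genes, 9 first copies with 10 second copies between them (RpS28b has both RpS28a and RpS28-like), the tandem copies RpS14a and RpS14b, and 3 relatives that belong to ribosome assembly. Of the 9 first copies, 7 lie on the X chromosome, while all 10 second copies are autosomal. Second copies also hold 5 of the 6 members without an intron, namely RpL10Aa, RpL37-2, RpS10a, RpS15Ab and RpS28a, and the remaining one is RpLP2. Per kb of exon, the median Control level was 199 CPM for single copies, 151 CPM for first copies and 80.3 CPM for second copies.

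The second copies took a small and changing part of the whole. They made up 4.47%, 4.55% and 4.41% of the members' summed CPM in Control, 4.93%, 4.95% and 4.97% in U2af38 RNAi and 4.12%, 4.21% and 4.14% for SRPK RNAi. The share was thus higher in every U2af38 RNAi library and lower in every SRPK RNAi library than in every Control library, by 0.475 and by 0.321 percentage points (exact two-sided permutation test, p = 0.1 each). This share does not depend on the scaling. Of the 10 second copies, 7 were called higher, RpS28a among them, and 2 lower in U2af38 RNAi, beside 44.7% and 37.5% of all genes. In SRPK RNAi 2 were higher and 2 lower, which is the share of all genes, 20.3% and 21.1%.

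For each pair the balance of copies was followed as the log2 ratio of fragments within a library, which also does not depend on scaling. In 10 of 11 pairs the U2af38 RNAi libraries lay wholly above or below Control, 6 with a larger and 4 with a smaller share of the second gene, and in SRPK RNAi this held for 4 pairs, 2 in each direction. Over all genes 84.7% and 50.5% had libraries that did not overlap in these comparisons. The 6 include RpS28a over RpS28b, where RpS28a passed the filter on low counts only through the U2af38 RNAi libraries where it is high. That ratio is given with no test. For the other separated pairs the exact permutation p was 0.1, the smallest possible, and 0.157 after adjustment over 22 tests. No pair could therefore pass the threshold at this sample size. Shares per kb below divide by the length of all annotated exons merged, which can exceed that of a single transcript. Which copy is the larger can thus depend on the length used, while the change of a ratio between groups does not.

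The pair that encodes RpL10A, a protein of the large subunit, had the largest difference in ratio in U2af38 RNAi after the thinly counted RpS28 pairs. RpL10Aa (dm6, 3R:15037366-15038149, 1 exon) stood at 200, 204 and 207 CPM in Control, at 86.5, 90.5 and 87.7 CPM in U2af38 RNAi and at 153, 156 and 181 CPM in SRPK RNAi. The 3 groups did not overlap. It fell by 1.21 on the log2 scale in U2af38 RNAi (SE 0.06, edgeR adjusted p = 2.11e-09) and by 0.32 in SRPK RNAi (SE 0.06, adjusted p = 0.00145), and it stayed lower and called in all 17 alternatives of both comparisons.

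RpL10Ab (3L:11822851-11824211, 2 introns) went the other way in U2af38 RNAi. It had 209, 209 and 214 CPM in the Control libraries against 309, 325 and 297 CPM in those of U2af38 RNAi, which did not overlap, and rose by 0.56 on the log2 scale (SE 0.05, edgeR adjusted p = 6.31e-07). The SRPK RNAi libraries held 224, 207 and 218 CPM and overlapped with Control (log2 fold change 0.04, adjusted p = 0.597). Per kb of exon, RpL10Aa held 54.2% ± 0.2 of the pair's fragments in Control, 25.8% ± 0.6 in U2af38 RNAi and 48.0% ± 2.4 in SRPK RNAi (SD, n = 3). Before division by length it held 49.2%, 22.1% and 43.0% in the same order. The ratio of RpL10Aa to RpL10Ab was 0.294 times that of Control in U2af38 RNAi and 0.780 times in SRPK RNAi.

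**Figure D3:**
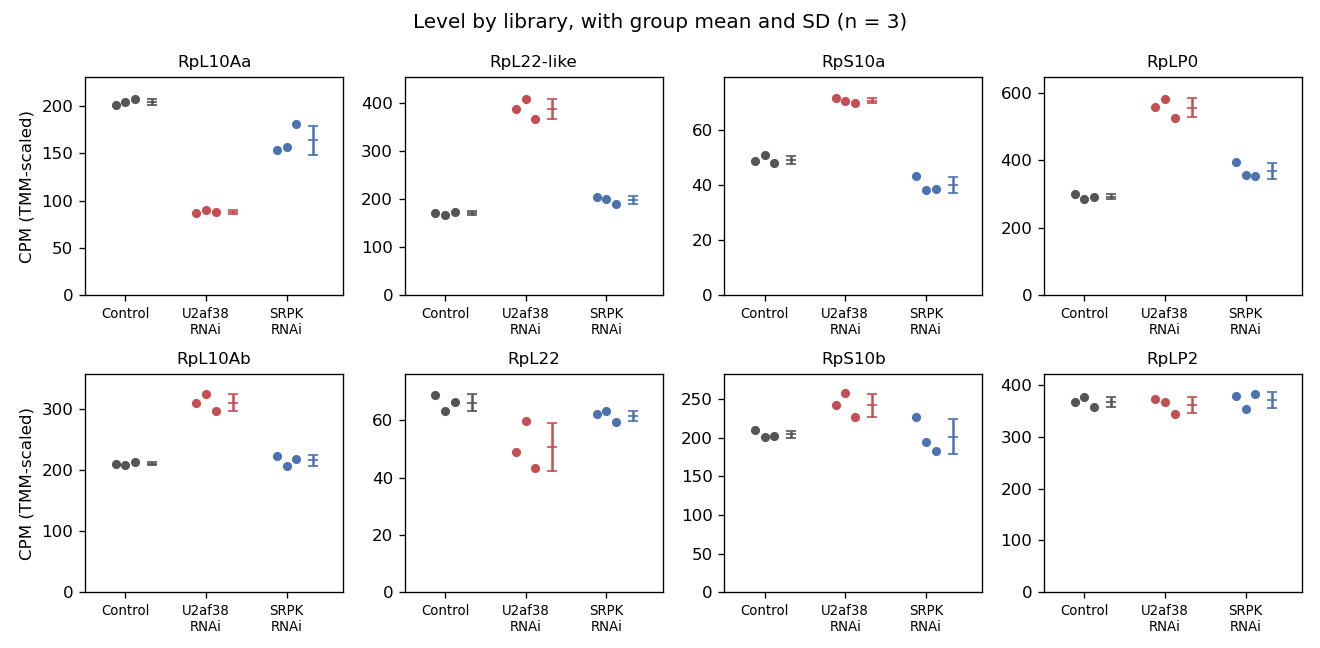
CPM of 8 ribosomal protein genes in each library (points), with the group mean and SD (bar, n = 3), each panel on its own scale from 0. RpL10Aa lies at 86.5 to 90.5 CPM in U2af38 RNAi against 200 to 207 CPM in Control while its partner RpL10Ab lies above Control, and RpLP2 overlaps between the groups.

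The RpL22 pair shifted toward the copy known from the germline. RpL22-like (2R:23246610-23247893) stood at 171, 166 and 174 CPM in Control, at 386, 407 and 365 CPM in U2af38 RNAi and at 205, 199 and 189 CPM in SRPK RNAi, with no overlap between the groups. It rose by 1.18 on the log2 scale in U2af38 RNAi (SE 0.06, edgeR adjusted p = 9.73e-10) and by 0.21 in SRPK RNAi (SE 0.06, adjusted p = 0.00864), where the value was 0.03 and no longer called with scaling on the mitochondrial ribosomal protein genes. RpL22 (X:762560-765130), expressed in most tissues, had 69.0, 63.1 and 66.3 CPM in the Control libraries against 48.9, 59.6 and 43.2 CPM in those of U2af38 RNAi, below every Control library. Its log2 fold change was -0.39 (SE 0.10, adjusted p = 0.00233), but it was 0.25 and called higher with library size alone, and it was not called with upper-quartile scaling or with at least 10 counts in every library. On 377 bp of its exons RpL22 shares a strand with lncRNA:CR42491, and fragments that fell in both genes were not counted.

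RpL22-like was the larger copy in Control and became more so. Per kb of exon it held 69.7% ± 0.7 of the pair in Control, 87.3% ± 1.2 in U2af38 RNAi and 74.1% ± 0.4 in SRPK RNAi. The ratio of the 2 copies in U2af38 RNAi was 2.99 times that of Control, and in SRPK RNAi 1.25 times.

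Among small-subunit pairs, RpS19b, RpS5b and RpS10a gained on their partners in U2af38 RNAi. RpS19b (3R:23932729-23933530) had 102, 108 and 99.1 CPM in the Control libraries against 224, 247 and 212 CPM in those of U2af38 RNAi, which did not overlap. It rose by 1.14 on the log2 scale (SE 0.07, edgeR adjusted p = 1.73e-08), beside 0.31 for the X-linked RpS19a, which turned to -0.01 with scaling on the mitochondrial ribosomal protein genes. In SRPK RNAi RpS19b stood at 109, 111 and 94.2 CPM, within and around the Control values. Its share of the pair per kb of exon went from 47.1% ± 0.6 in Control to 61.3% ± 1.0 in U2af38 RNAi. Before division by length the share went from 32.1% to 45.7%, so RpS19b was the larger copy in U2af38 RNAi only per kb.

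RpS5b, known for its part in the female germline, was higher in both knockdowns. It stood at 79.3, 74.8 and 71.6 CPM in Control, at 145, 156 and 143 CPM in U2af38 RNAi and at 107, 93.6 and 81.5 CPM in SRPK RNAi. The groups did not overlap, with log2 fold changes of 0.98 (SE 0.09, edgeR adjusted p = 3.45e-07) and 0.33 (SE 0.09, adjusted p = 0.00918), the latter 0.13 and no longer called with scaling on the mitochondrial ribosomal protein genes. The X-linked RpS5a had log2 fold changes of 0.33 (adjusted p = 0.000143) and 0.03 (adjusted p = 0.747), and the first was also not called under that scaling, at 0.01. RpS5b held 34.3% ± 1.5 of the pair per kb in Control, 45.0% ± 0.6 in U2af38 RNAi and 39.0% ± 2.2 in SRPK RNAi.

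RpS10a, an intronless germline copy on 3R, was called in opposite directions in the knockdowns. It stood at 48.7, 50.9 and 48.1 CPM in Control, at 71.7, 70.6 and 69.9 CPM in U2af38 RNAi and at 43.3, 38.2 and 38.8 CPM in SRPK RNAi. All 3 groups were apart, and the log2 fold change was 0.52 for U2af38 RNAi (SE 0.06, edgeR adjusted p = 4.77e-06) and -0.30 for SRPK RNAi (SE 0.06, adjusted p = 0.00218). The second value was negative in all 17 alternatives but not called with library size alone. It was the only member called in opposite directions in these comparisons, which share the Control libraries, and the direct test of U2af38 RNAi against SRPK RNAi gave a log2 fold change of 0.82 (adjusted p = 8.33e-08).

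Its partner RpS10b stood 0.25 higher on the log2 scale for U2af38 RNAi (adjusted p = 0.00929), a value of -0.07 with scaling on the mitochondrial ribosomal protein genes and not called without U2af38 RNAi replicate 2 (0.19), and at -0.02 for SRPK RNAi (adjusted p = 0.856). RpS10a held 38.3% ± 1.1 of the pair per kb in Control, 43.0% ± 1.4 in U2af38 RNAi and 34.0% ± 1.2 in SRPK RNAi. Before division by length it held 19.4%, 22.6% and 16.6% in the same order. The merged exons of RpS10b span 1557 bp, while its shortest transcript has 651 bp.

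**Figure D4:**
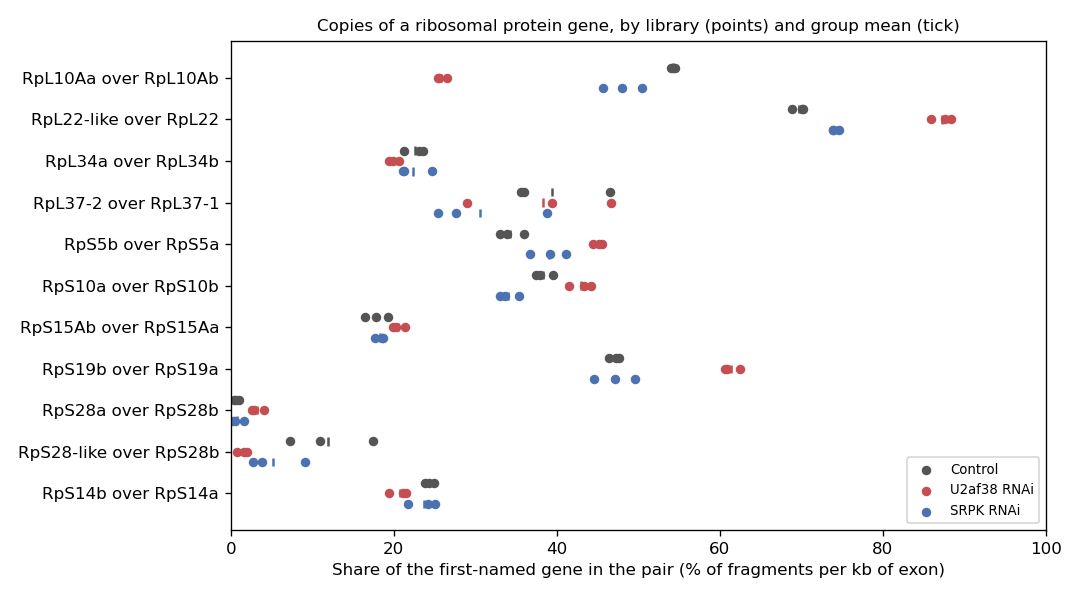
Share of the first-named gene in each of 11 pairs of copies, in percent of the pair's fragments per kb of exon, for each library (points) and as the group mean (tick). RpL10Aa falls from 54.2% in Control to 25.8% in U2af38 RNAi, while RpL22-like, RpS5b, RpS10a and RpS19b gain, and RpL37-2 overlaps between all groups.

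In the RpS15A, RpL34 and RpS14 pairs all copies were called higher. RpS15Ab and RpS15Aa had log2 fold changes of 0.77 and 0.52 in U2af38 RNAi, RpL34a and RpL34b of 0.57 and 0.80, and RpS14b and RpS14a of 0.22 and 0.52, although RpS14b turned to -0.09 with scaling on the mitochondrial ribosomal protein genes. The second gene took 20.5% ± 0.8 of the RpS15A pair per kb in U2af38 RNAi and 17.9% ± 1.4 in Control, 19.95% ± 0.6 and 22.6% ± 1.2 of the RpL34 pair, and 20.7% ± 1.1 and 24.4% ± 0.6 of the RpS14 pair. RpS14a and RpS14b are neighbours on the X chromosome with nearly the same coding sequence. Fragments that fit more than 1 place were not counted, so the levels of such close copies are uncertain.

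RpL37-2 and the RpS28 copies have short transcripts and were unevenly counted. RpL37-2 (422 bp, no intron) stood at 33.5, 49.7 and 35.7 CPM in Control, at 69.3, 33.5 and 48.4 CPM in U2af38 RNAi and at 25.7, 38.8 and 23.4 CPM in SRPK RNAi, and the groups overlapped. Its log2 fold changes were 0.35 (edgeR adjusted p = 0.211) and -0.43 (adjusted p = 0.196), beside 0.38 and 0.12 for RpL37-1. RpS28a (304 bp) ran from 0.15 to 0.49 CPM over the Control libraries and from 1.59 to 2.58 CPM over those of U2af38 RNAi, where 3 fragments are worth 0.11 to 0.17 CPM over the 6 libraries. These are 3, 5 and 12 fragments against 46, 43 and 64. It passed the filter on low counts only through U2af38 RNAi, so its log2 fold change of 2.64 is given with no test.

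RpS28-like fell by 2.78 on the log2 scale in U2af38 RNAi (SE 0.51, edgeR adjusted p = 0.00028). It stood at 6.57, 12 and 4.58 CPM in Control, at 1.6, 0.59 and 1.17 CPM in U2af38 RNAi and at 1.66, 5.93 and 2.48 CPM in SRPK RNAi. The U2af38 RNAi libraries lay below Control and the SRPK RNAi libraries overlapped with it (log2 fold change -1.18, adjusted p = 0.0598). RpS28b, the first copy, ran from 143 to 155 CPM over the Control libraries and from 192 to 204 CPM over those of U2af38 RNAi, and its difference of 0.40 on the log2 scale (edgeR adjusted p = 9.38e-06) was 0.09 and not called with scaling on the mitochondrial ribosomal protein genes.

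The relatives in ribosome assembly passed the test narrowly. RpL24-like, whose yeast counterpart holds the place of a ribosomal protein in the immature large subunit, was 0.17 higher on the log2 scale with U2af38 RNAi (edgeR adjusted p = 0.0127) and RpLP0-like, related to the stalk protein RpLP0, 0.35 higher (adjusted p = 0.0346). RpL24-like turned to -0.14 with scaling on the mitochondrial ribosomal protein genes and lost its call without Control replicate 1, and RpLP0-like lost its call in 6 alternatives. In SRPK RNAi neither passed the test. Their ribosomal counterparts RpL24 and RpLP0 had log2 fold changes of 0.20 and 0.92 in U2af38 RNAi, the first of them -0.11 with that scaling. RpL7-like received 0 to 2 fragments a library and was not tested. CG34164 lies over 1771 bp of its exons on the same strand, where shared fragments were not counted. Its ribosomal counterpart RpL7 rose by 0.70 in U2af38 RNAi (edgeR adjusted p = 2.07e-07).

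The proteins of the ribosomal stalk, which recruits translation factors, went separate ways. RpLP0, its base, stood at 300.2, 284 and 293 CPM in Control, at 558, 581 and 526 CPM in U2af38 RNAi and at 395, 357 and 354 CPM in SRPK RNAi, with no overlap. Its log2 fold changes were 0.92 (SE 0.06, edgeR adjusted p = 2.68e-08), the highest called value among the single copies, and 0.33 (SE 0.06, adjusted p = 0.00108), which was 0.14 and not called with scaling on the mitochondrial ribosomal protein genes. RpLP1 and RpLP2, which bind RpLP0 as dimers, had log2 fold changes of 0.14 (adjusted p = 0.0328) and -0.02 (adjusted p = 0.691) in U2af38 RNAi, the first of them -0.18 and called lower with scaling on the mitochondrial ribosomal protein genes and the second 0.61 with library size alone. RpLP1 was not called with no filter, nor without Control replicate 1 (0.12) or 3 (0.12) or U2af38 RNAi replicate 1 (0.11) or 2 (0.10), nor without SRPK RNAi replicate 2. RpLP2 had 367, 376 and 357 CPM in the Control libraries against 373, 366 and 343 CPM in those of U2af38 RNAi, and these overlapped.

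Beside RpLP0, RpS2 and the ubiquitin fusion genes were among the single copies called higher in U2af38 RNAi. RpS2, a core protein of the small subunit, stood at 248, 228 and 232 CPM in Control, at 394, 446 and 387 CPM in U2af38 RNAi and at 316, 286 and 284 CPM in SRPK RNAi, with log2 fold changes of 0.80 (SE 0.07, edgeR adjusted p = 3.43e-07) and 0.32 (SE 0.07, adjusted p = 0.00277). The ubiquitin fusion genes RpL40 and RpS27A rose by 0.70 and 0.69. RpS6, the target of S6 kinase, was 0.30 higher (adjusted p = 0.000276), a value of -0.02 with scaling on the mitochondrial ribosomal protein genes. In SRPK RNAi RpL40 had a log2 fold change of 0.17 (adjusted p = 0.0122), which was -0.02 with that scaling, while RpS27A and RpS6 did not pass the test.

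Of the 68 single-copy genes, 57 were higher in U2af38 RNAi, 1 was lower and 10 did not pass the test, beside 44.7% higher and 37.5% lower over all genes. The lower one was RpS29, a zinc-binding protein of the small subunit, which had 414, 453 and 442 CPM in the Control libraries against 404, 380 and 359 CPM in those of U2af38 RNAi, without overlap. Its log2 fold change was -0.20 (SE 0.06, edgeR adjusted p = 0.00977), which was 0.44 with library size alone and 0.11 with upper-quartile scaling, and it lost its call with at least 10 counts in every library and in each lane alone. RpL30, RpL41 and RpS30, the last of them made as a fusion with a ubiquitin-like protein, had log2 fold changes of -0.17, -0.13 and -0.04 and did not pass the test. With library size alone RpL30 and RpS30 turned to 0.47 and 0.60. RpL41 also turned positive there, with upper-quartile scaling, with at least 10 counts in every library and without U2af38 RNAi replicate 2, reaching 0.50 at most. RpL11 and RpL15, named here after their values were seen, stood at 0.10 and 0.11 with adjusted p of 0.176 and 0.0726.

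Message levels of the members were far from equal. Per kb of exon in Control, RpLP2 (607 ± 15 CPM), RpS27A (463 ± 10 CPM) and RpLP1 (437 ± 13 CPM) were the highest, RpS29 followed at 433 ± 20 CPM, and RpLP1 and RpS29 did not differ beyond their spread (SD, n = 3). The length is that of all annotated exons merged, and the order depends on it. It is 604 bp for RpLP2, the same as its shortest transcript. For RpS29 it is 1007 bp, while the shortest transcript has 502 bp. The lowest tested members were RpS28a (1.01 ± 0.56 CPM), RpL39 (4.22 ± 2.35 CPM) and RpL36A (7.13 ± 0.77 CPM). CPM, which is not divided by length, went with transcript length at Spearman rho 0.52 over 91 genes, which share the libraries. Longer transcripts give more fragments for the same number of messages, so this rho does not describe level per kb. The libraries were size-selected for longer fragments, and the part of that step was not tested.

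Members with the shortest transcripts were also the least steady between replicates. The 6 tested genes whose longest transcript is under 500 bp (RpL29, named after its values were seen, RpL37-2, RpL39, RpL41, RpS28a and RpS28-like) had a median coefficient of variation of 36.0% in Control, 34.5% in U2af38 RNAi and 82.7% in SRPK RNAi, where the other 85 had 2.66%, 5.59% and 5.04%. Together the 6 stood at 66.0, 82.8 and 64.8 CPM in Control, at 96.9, 53.8 and 85.1 CPM in U2af38 RNAi and at 46.5, 112 and 41.0 CPM in SRPK RNAi. SRPK RNAi replicate 2 was thus the highest of all 9 libraries and the other SRPK RNAi libraries the lowest.

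RpL41, which encodes the smallest ribosomal protein, had 13, 46.0 and 9.61 CPM in the SRPK RNAi libraries and 16.6, 12.3 and 16.9 CPM in those of Control, and only replicate 2 lay above Control. Its log2 fold change of 0.58 (edgeR adjusted p = 0.341) turned to -0.43 without SRPK RNAi replicate 2, and that of RpL39, a protein of the exit tunnel, from 0.98 (adjusted p = 0.203) to -0.10. In U2af38 RNAi RpL39 stood at 1.31 (adjusted p = 0.0516) and passed the test in 9 of 17 alternatives, RpL36A at 0.72 (adjusted p = 0.0116), called in 15 of 17 but not without U2af38 RNAi replicate 1 or with scaling on the mitochondrial ribosomal protein genes, and RpL38 at 0.34 (adjusted p = 0.078). In SRPK RNAi RpL38, RpL36 and RpS30 had the lowest values among single copies, at -0.41, -0.13 and -0.11, and none passed the test.

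**Figure D5:**
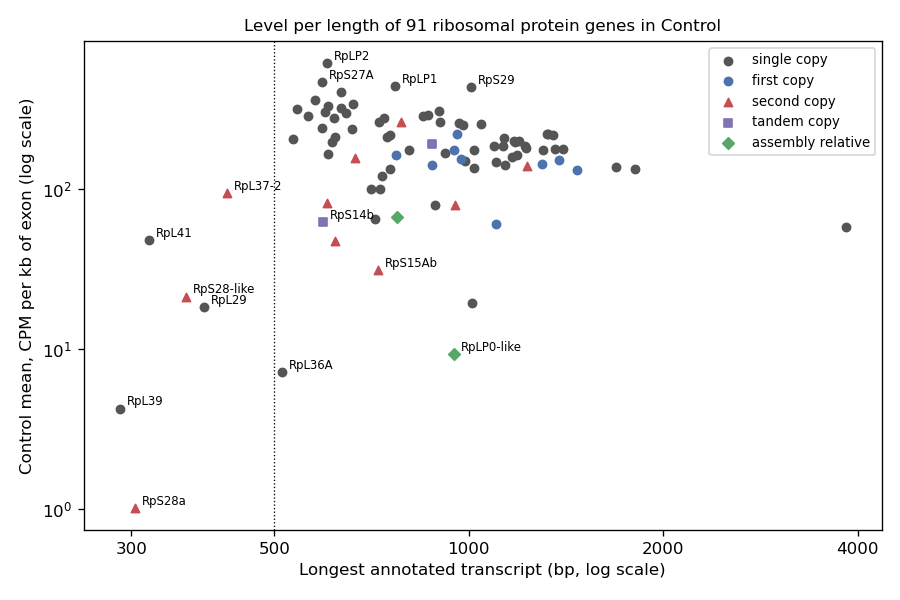
Mean Control level per kb of exon against the longest annotated transcript of each of 91 genes, both on log axes, with the dotted line at 500 bp. The 6 genes left of the line lie at 1.01 to 93.9 CPM per kb, and RpLP2 is highest at 607 CPM per kb of merged exons, an order that depends on the length used.

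The ribosomal protein genes outside the symbol rule were both higher in U2af38 RNAi. The gene sta, which encodes a protein of the small subunit, rose by 0.50 on the log2 scale (edgeR adjusted p = 1.3e-05) and Rack1, a scaffold on the small subunit, by 0.27 (adjusted p = 0.0015). In SRPK RNAi they stood at 0.09 and 0.16 and did not pass the test.

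Genes that build ribosomes were given by lists. Of 23 genes of ribosome biogenesis, 16 were higher and 4 lower in U2af38 RNAi, with a median log2 fold change of 0.41, and 14 were higher and 0 lower in SRPK RNAi, with a median of 0.27. Among these 23 RIOK1, a kinase of small-subunit maturation, rose by 1.35 in U2af38 RNAi, while Fib, the fibrillarin of the nucleolus, fell by 0.31 and eIF6, which keeps immature large subunits from joining, fell by 0.46. Of 9 genes of RNA polymerase I, which transcribes ribosomal RNA, 5 were higher and 2 lower in U2af38 RNAi, and 4 higher and 0 lower in SRPK RNAi. Polr1A, its largest subunit, stood at 27.6, 28.9 and 29.7 CPM in Control, at 132, 134 and 140 CPM in U2af38 RNAi and at 64.6, 59.9 and 57.3 CPM in SRPK RNAi, and the groups did not overlap. The 2 lower ones in U2af38 RNAi were Polr1C and Polr1E, at -0.49 and -0.31 on the log2 scale.

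Of 25 translation factors listed, 9 were higher and 8 lower in U2af38 RNAi, under the 44.7% and 37.5% of all genes, with a median log2 fold change of -0.05, and eEF2, the factor that moves the ribosome along, rose by 0.49 while eIF5B, which joins the subunits, fell by 1.88. In SRPK RNAi 7 were higher and 2 lower, beside 20.3% and 21.1% of all genes, with a median of 0.10. Of 9 genes that regulate ribosomal protein messages, 4 were higher and 2 lower in U2af38 RNAi, near the share of all genes for the higher ones, and 3 were higher and 2 lower in SRPK RNAi. Trf2, a factor for promoters of ribosomal protein genes, ran from 490 to 513 CPM over the Control libraries and from 1269 to 1366 CPM over those of U2af38 RNAi, and Thor, the Drosophila 4E-BP that restrains translation, from 45.9 to 53.5 CPM and from 21.9 to 24.3 CPM. In SRPK RNAi both were called too, Trf2 at 0.35 and Thor at -0.62 on the log2 scale. Of the other listed regulators, M1BP was lower in U2af38 RNAi, at -0.32 on the log2 scale. Dref, S6k and larp were higher there, and Xrp1, Myc and Irbp18 did not pass the test.

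Mitochondrial ribosomal proteins form a separate ribosome. Of 71 tested, 41 were higher and 12 lower in U2af38 RNAi, beside 44.7% and 37.5% of all genes. Their median log2 fold change was 0.32, with a range of -1.40 to 2.02. In SRPK RNAi 23 were higher and 2 lower, beside 20.3% and 21.1% of all genes. The median was 0.16 beside the 0.08 of the cytoplasmic genes.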

How the data were processed

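Per the file header and the methods, the authors aligned reads to dm6 with STAR 2.7.1a and deposited raw fragment counts per gene and lane from featureCounts 1.6.2 (paired, reverse-stranded, FlyBase 6.37), without counting fragments that map to several places or to several features. The 2 lanes of each library were summed here. Genes were kept with edgeR's filterByExpr (14941 of 17575) and tested with edgeR 4.0.16 in R 4.3.3 (TMM, quasi-likelihood, all 9 libraries, no block, threshold 0.05). Standard errors are approximate, from the F statistic. The floor of 3 fragments covers counting error only. Symbols came from Ensembl 115, and all 92 members had the same exons there. Pair ratios used counts plus 0.5. DESeq2 1.42.0, other scalings, filters, lanes, single libraries left out and a replicate block were alternatives. Named were all copies and their partners, the 3 highest and lowest other members in each knockdown and in Control level per kb, and the stalk, ubiquitin-fusion, RpS6 and RpL41 genes; a member that the rule names is not reported here. The members and lists were chosen with earlier results of these data known. The fit was tested on simulated counts. The listed nos, Taf1B, rye and Acp70A were matched through RefSeq synonyms as nanos, TAF1B, Taf12L and SP. Plots used matplotlib 3.10.9 in Python 3.11.15.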

Additional observations from a re-analysis of the deposited data

How the results depend on the processing

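The 11 pair ratios moved by less than the larger of the replicate SDs of the groups compared in every alternative run, at most from 2.32 to 1.62 for RpS28a over RpS28b in U2af38 RNAi. In 6 of the 10 runs 1 library was left out. Leaving out 1 of 3 values cannot move a mean by its full SD, so those runs could not have shown otherwise. Signs turned for RpL37-2 in U2af38 RNAi (-0.07, up to 0.22) and in SRPK RNAi for the RpL34, RpS14, RpS15A, RpS19 and RpS28a pairs, none of which had separated groups. Of U2af38 RNAi against Control, DESeq2, TMM without the members and a test of these groups alone kept the counts within 1.5 times. Library size alone gave 2 lower members and a median log2 fold change of 1.07, upper-quartile scaling 2 and 0.73, at least 10 counts in every library 2 and 0.61, and lanes 1 and 2 alone medians of 0.51 and 0.50. Scaling on the mitochondrial ribosomal protein genes gave 39 higher, 10 lower and 0.11. A log2 fold change of at least 1 left 3 higher and 2 lower, and members without second copies and -like relatives 2 lower.

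In SRPK RNAi against Control, library size alone gave 55 higher, 1 lower and a median of 0.20, and scaling on the mitochondrial ribosomal protein genes 0 higher, 14 lower and -0.10. The fold limit left 0 higher and 0 lower, and members without second copies and -like relatives 0 lower. In U2af38 RNAi against SRPK RNAi, the medians were 0.45 with DESeq2, 0.56 with at least 10 counts, 0.90 with library size alone, 0.70 with upper-quartile scaling and 0.26 with scaling on the mitochondrial ribosomal protein genes, with 1 lower by library size, 5 lower by that last scaling, 2 higher and 1 lower past the fold limit, and 1 lower without second copies and -like relatives.

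Leaving out 1 library gave 73 to 77 higher, 4 to 5 lower and medians of 0.42 to 0.46 in U2af38 RNAi against Control, 5 to 15 higher, 2 to 5 lower and 0.06 to 0.11 in SRPK RNAi against Control, and 68 to 76 higher, 2 to 5 lower and 0.35 to 0.41 between the knockdowns. The 5 lower came without SRPK RNAi replicate 2 and without U2af38 RNAi replicate 1. Leaving out transcripts under 500 bp, an alternative chosen after seeing the data, gave 75 higher and 3 lower with a median of 0.46 in U2af38 RNAi against Control.

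With library size alone in U2af38 RNAi against Control, RpL22 turned to 0.25, RpS29 to 0.44, RpL30 to 0.47, RpLP2 to 0.61 and RpS30 to 0.60; with upper-quartile scaling RpS29 to 0.11, RpLP2 to 0.28 and RpS30 to 0.27; and with at least 10 counts RpLP2 to 0.16. With scaling on the mitochondrial ribosomal protein genes RpL24 turned to -0.11, RpL24-like to -0.14, RpL36 to -0.051, RpLP1 to -0.18, RpS10b to -0.067, RpS14b to -0.091, RpS19a to -0.0053 and RpS6 to -0.018, and in SRPK RNAi RpL40 to -0.017, RpS19b to -0.17 and RpS5a to -0.16. Between the knockdowns RpL22 turned to 0.24 and 0.034, RpLP2 to 0.48 and 0.28 and RpS29 to 0.41 and 0.21 with library size alone and upper-quartile scaling, RpL30 to 0.35 with library size alone and RpLP2 to 0.13 with at least 10 counts. Some of these were not called in the main test. The cause of these changes was not tested.

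The replicate numbers are shared by the groups, but same-numbered libraries did not deviate together in every pair (correlations of -0.46 to 0.36). With a replicate block 76 members were higher and 4 lower in U2af38 RNAi against Control, 15 and 3 in SRPK RNAi against Control, and 75 and 3 between the knockdowns.

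Fragments per member set the limit: RpL7-like held at most 2 and RpS28a few in any library, and 3 replicates a group allow no exact p under 0.1.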
